A study of Homo sapiens with 3 samples.

Results

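The genes described here are 10 factors of DNA replication origins, called the licensing genes below. They are the helicase subunit genes MCM2, MCM3, MCM4, MCM5, MCM6 and MCM7, the loader genes ORC1, CDC6 and CDT1, and MCM10. MCM10 is grouped with them although it acts after loading, in helicase activation. Each of the 10 genes was taken from the probe set, of a deposited table of 33297, whose platform annotation names that gene and no other. All 10 had exactly 1 such probe set, out of 18417 genes named in this way, and all 10 were among the 12892 genes tested. The cells were LNCaP, an established androgen-responsive human line from a prostate carcinoma metastasis, grown in RPMI1640 with fetal bovine serum and transfected with RNAiMAX. The siSE1 and siSE2 arrays (1 each) came from cells given an siRNA against the SLC45A3-ELK4 chimeric transcript, and the third array from cells given a negative control siRNA, named siGl2 in the study design. All 3 sets of cells were harvested 72 hours after transfection, and the comparison asks which genes respond when the chimera is targeted. The transfection field of the array titled siSE2 names siSE1, and the title was followed. If that field is right, siSE1 and siSE2 below are repeats of 1 siRNA. Nothing in the labels says whether the arrays came from separate cultures, so the p-values measure only the spread between these arrays, which may be technical, and the spread of the control group, which has a single array, is taken from the siRNA arrays.

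Replication licensing takes place as cells leave mitosis and pass through G1. The origin recognition complex, of which ORC1 is the largest subunit, binds DNA and recruits CDC6, and together with CDT1 they load the ring formed by MCM2 to MCM7 onto the helix. The loaded ring stays inactive until S phase, when CDC45 and the GINS complex join it to form the working helicase and MCM10 helps to activate it. Transcription of most of these genes is controlled by E2F factors and is low in quiescent cells, and MCM proteins are widely used to mark proliferating tumour cells.

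Promoter letters of E2F type were looked up first, because most of these genes are textbook E2F targets. The RefSeq table of promoter windows (build GRCh38.p14, 250 bases before to 50 after an annotated start) held 8 of the 10 genes, and had no entry for MCM4 and MCM5. The letters searched on both strands were TTTCCCGC, TTTGGCGC, TTTCGCGC and TTTGCCGC, and separately CCAAT, the core letters of NF-Y sites. In the stretches printed here, 5′ to 3′ on the strand of the gene, capitals mark every match to either motif on either strand, so that ATTGG is CCAAT read from the other strand and overlapping matches run together.
MCM2, chr3:127598366-127598425, plus strand: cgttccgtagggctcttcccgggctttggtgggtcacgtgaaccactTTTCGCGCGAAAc
MCM3, chr6:52284728-52284837, minus strand: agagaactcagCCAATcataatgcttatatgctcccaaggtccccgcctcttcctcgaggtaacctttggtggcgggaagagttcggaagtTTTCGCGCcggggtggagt
MCM6, chr2:135876493-135876603, minus strand: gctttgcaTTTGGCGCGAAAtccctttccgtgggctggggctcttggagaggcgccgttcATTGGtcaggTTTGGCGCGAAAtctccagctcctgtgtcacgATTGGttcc
MCM7, chr7:100101388-100101457, minus strand: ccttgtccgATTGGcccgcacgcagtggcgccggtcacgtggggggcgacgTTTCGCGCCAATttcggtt
CDC6, chr17:40287819-40287898, plus strand: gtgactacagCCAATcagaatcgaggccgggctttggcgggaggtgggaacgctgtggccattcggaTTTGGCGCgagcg
CDT1, chr16:88803729-88803788, plus strand: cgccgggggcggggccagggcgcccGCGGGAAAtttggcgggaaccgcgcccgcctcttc
MCM10, chr10:13161433-13161472, plus strand: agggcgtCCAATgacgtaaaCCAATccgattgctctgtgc
ORC1, chr1:52404424-52404483, minus strand: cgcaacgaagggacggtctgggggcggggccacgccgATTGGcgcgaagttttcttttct

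The E2F-type letters stood in a window of 6 of the 8 genes, MCM2, MCM3, MCM6, MCM7, CDC6 and CDT1. Counted by window, 6 of the 10 windows of these genes (60%) held them, against 3.31% of all 35116 RefSeq windows and 4.75% of the 14652 windows of genes tested on the arrays. CCAAT stood in 8 of the 10 windows (80%), against 34.6% of all windows. MCM6 carried the run TTTGGCGCGAAA at 2 places, which begin at positions -152 and -90 from the start, with 2 CCAAT matches downstream of the first. In CDC6 and MCM2 the match lay just after the start, from base 8 and from base 3. MCM7 has 3 windows in the table, and the E2F-type letters were in 1 of them, the one printed above. The windows of MCM10 and ORC1 had no E2F-type match, which says only that these letters are not in those windows. On the arrays, the 6 genes with a match differed from control by -0.75 to -0.15 on the log2 scale. MCM10 and ORC1 differed by -0.47 and -0.34. Whether the letters bear on the changes was not tested.

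**Figure D1:**
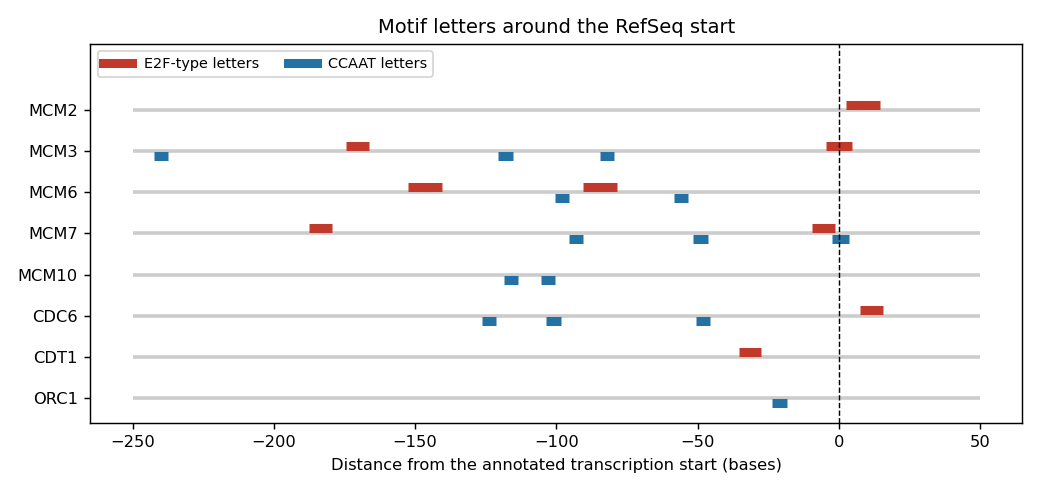
Position of E2F-type letters (red) and CCAAT letters (blue) in the RefSeq promoter window of 8 genes, in bases from the annotated start (dashed line); for MCM7 the first of its 3 windows is drawn. Red marks appear in 6 of the 8 windows, and MCM6 has its pair of red marks between positions -152 and -79.

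All 10 genes read lower on both siRNA arrays than on the control array. Of all genes tested 41.7% did so. Both differences are taken from the same control array, so a shared direction with siSE1 and siSE2 does not count as independent repeats. This holds for every count with both siRNAs below. The median difference of the 10 genes, the mean of siSE1 and siSE2 minus control, was -0.46 on the log2 scale, against -0.02 over all genes tested. With siSE1 alone their median was -0.47 and with siSE2 alone -0.41. The signal of each gene on the arrays ran from 6.56 to 9.61, above the level of 5.12 below which genes were left out. MCM4 alone fell by the test over all genes (limma with Benjamini-Hochberg adjustment, threshold 0.05), and none rose. Among all genes tested 0.714% fell and 0.248% rose. With no adjustment (limma, p under 0.05) 8 of the 10 genes were lower, all but MCM7 and CDT1, against 11.3% of all genes tested. The 10 genes were chosen with earlier results of these data known, so their counts beside all genes are description only. In this RNA from whole cultures, fewer cycling cells and less RNA of these genes per cell cannot be told apart.

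**Figure D2:**
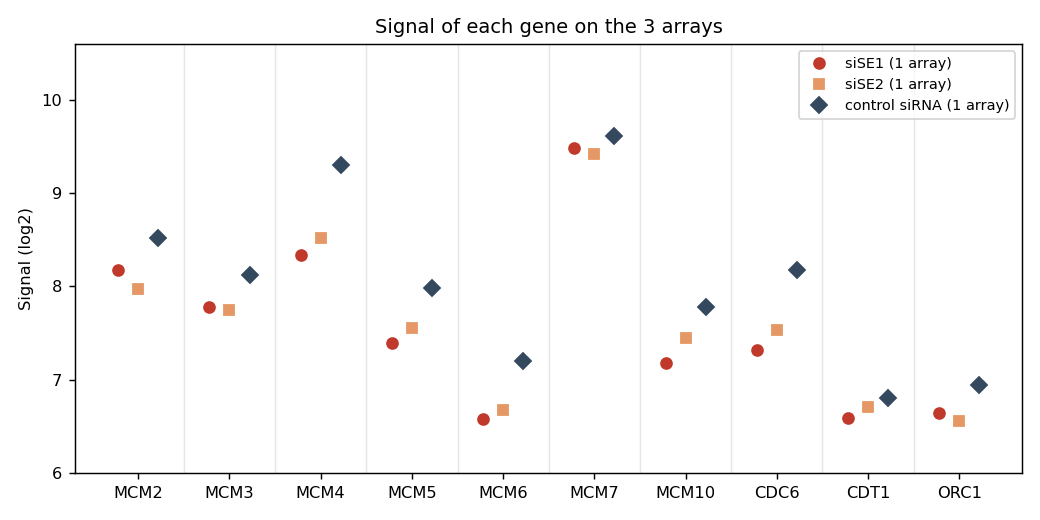
Signal (log2) of each of the 10 genes on the siSE1, siSE2 and control siRNA arrays, 1 point per array. Within every gene the control array is the highest of the 3 points; levels of different genes come from different probe sets and are not comparable.

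MCM4, a subunit of the ring, read 8.34 with siSE1 and 8.52 with siSE2, against 9.31 with the control siRNA (log2 signal). Both siRNA arrays lay well below the control array, the lower one being siSE1. MCM4 fell 1.83-fold (log2 difference -0.88 ± 0.15, SE, n = 2 against 1; limma, adjusted p = 0.0378), leaving 54.5% of the control signal, and 0.496% of the genes tested had a lower difference. The call was lost with no filter on dim genes (limma, adjusted p = 0.124) and when the filter was set at the median gene (50th percentile; limma, adjusted p = 0.0503), and over the 8 alternatives with a test the adjusted p ran from 0.0294 to 0.124.

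The partners of MCM4 in the catalytic core of the ring, MCM6 and MCM7, took different places in the order of changes. MCM6 read 6.58 with siSE1 and 6.67 with siSE2, against 7.20 with the control siRNA. Its difference of -0.58 ± 0.14 did not pass (SE; limma, adjusted p = 0.0901), and its unadjusted 95% interval ran from -0.90 to -0.26. MCM7 read 9.48 with siSE1 and 9.42 with siSE2, against 9.61 with the control siRNA. The siRNA arrays were only slightly below the control array for MCM7, with a difference of -0.16 ± 0.14 (SE; limma, adjusted p = 0.588) and an interval from -0.48 to 0.16 that includes 0. Set against the change of MCM7, the change of MCM4 was lower by 0.83 with siSE1 and by 0.60 with siSE2 on the log2 scale. The 95% interval of MCM4, from -1.21 to -0.54, lies below that of MCM7, while each of the 10 genes overlaps its neighbours in the order. The difference between members was not tested. The MCM7 gene also carries the microRNA genes MIR106B, MIR93 and MIR25, which have probe sets of their own. MIR93 and MIR106B were dim, at 5.39 to 5.62 over the 3 arrays, against a filter level of 5.12. MIR25 read 7.32 with siSE1 and 7.36 with siSE2, against 7.18 with the control siRNA. Neither MIR25, MIR93 (difference -0.10 ± 0.14, SE) nor MIR106B (-0.01 ± 0.14) passed the test (limma, adjusted p from 0.589 to 0.973).

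The remaining ring subunits lay between these extremes. MCM5, which closes the ring by meeting MCM2 at its gate, read 7.40 with siSE1 and 7.55 with siSE2, against 7.99 with the control siRNA. MCM2, a target of the CDC7 kinase, read 8.18 with siSE1 and 7.98 with siSE2, against 8.52 with the control siRNA. MCM3, which in budding yeast contacts the loaders, read 7.78 with siSE1 and 7.75 with siSE2, against 8.13 with the control siRNA. In each of the 3 genes both siRNA arrays were below the control array, with MCM2 lower under siSE2, MCM5 lower under siSE1 and MCM3 nearly equal under both. The differences were -0.51 ± 0.15 for MCM5, -0.44 ± 0.15 for MCM2 and -0.37 ± 0.14 for MCM3 (SE), and none passed over all genes (limma, adjusted p = 0.122, 0.179 and 0.220). Their unadjusted intervals excluded 0. As a group the 6 ring subunits had a median difference of -0.48, with -0.47 for siSE1 and -0.48 for siSE2.

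The loaders also differed among themselves. CDC6, the ATPase that with ORC1 recruits the ring, read 7.31 with siSE1 and 7.53 with siSE2, against 8.17 with the control siRNA. Its log2 difference of -0.75 ± 0.15 (SE), a signal 1.68-fold lower, did not pass over all genes (limma, adjusted p = 0.0580), although 1.02% of the genes tested had a lower difference. ORC1 read 6.64 with siSE1 and 6.56 with siSE2, against 6.94 with the control siRNA, a difference of -0.34 ± 0.14 (SE; limma, adjusted p = 0.255). CDT1, the loader that geminin inhibits, read 6.59 with siSE1 and 6.71 with siSE2, against 6.80 with the control siRNA. For CDT1 the siSE2 and control arrays were close, and its difference of -0.15 ± 0.14 (SE; limma, adjusted p = 0.620) had an interval from -0.47 to 0.17. MCM10, which acts after loading, read 7.17 with siSE1 and 7.45 with siSE2, against 7.78 with the control siRNA. Its difference was -0.47 ± 0.16 (SE; limma, adjusted p = 0.173), with siSE1 lower than siSE2.

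**Figure D3:**
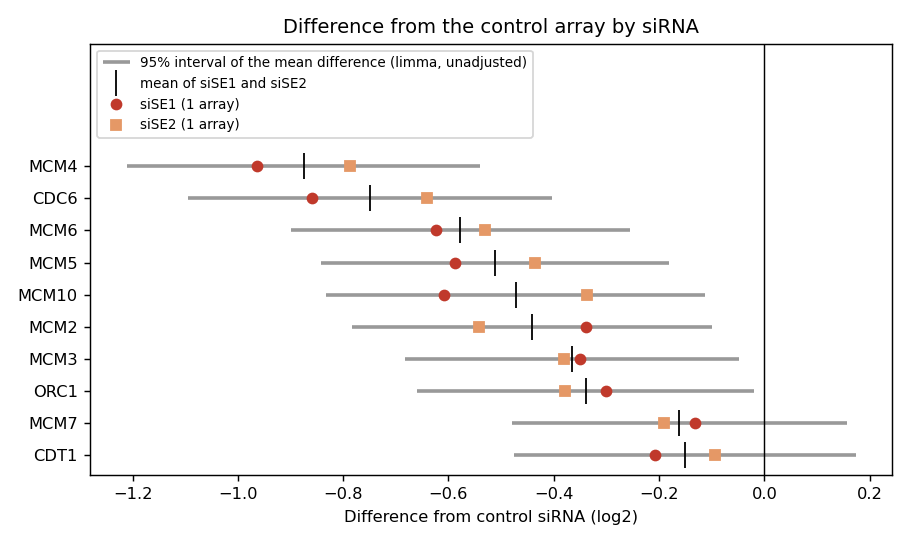
Difference from the control siRNA array (log2) for each gene with siSE1 and with siSE2, with their mean and its unadjusted 95% interval from limma. MCM4 (-0.88) and CDC6 (-0.75) are farthest from 0, and the intervals of MCM7 and CDT1 include 0.

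By size alone, with no test, MCM4 and CDC6 were at least 1.5-fold lower with both siRNAs, 2 of the 10 genes, against 1.53% of all genes tested. A smaller size, at least 0.32 lower on the log2 scale with both siRNAs, was met by 7 of the 10 genes (MCM2, MCM3, MCM4, MCM5, MCM6, MCM10 and CDC6) and by 8.02% of all genes tested. None was 2-fold lower with both siRNAs, a size that 0.101% of all genes tested met. Counted with siSE1 alone, 5 of the 10 genes were at least 1.5-fold lower, against 4.27% of all genes tested. With siSE2 alone 2 of the 10 were, against 2.82% of all genes tested.

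**Figure D4:**
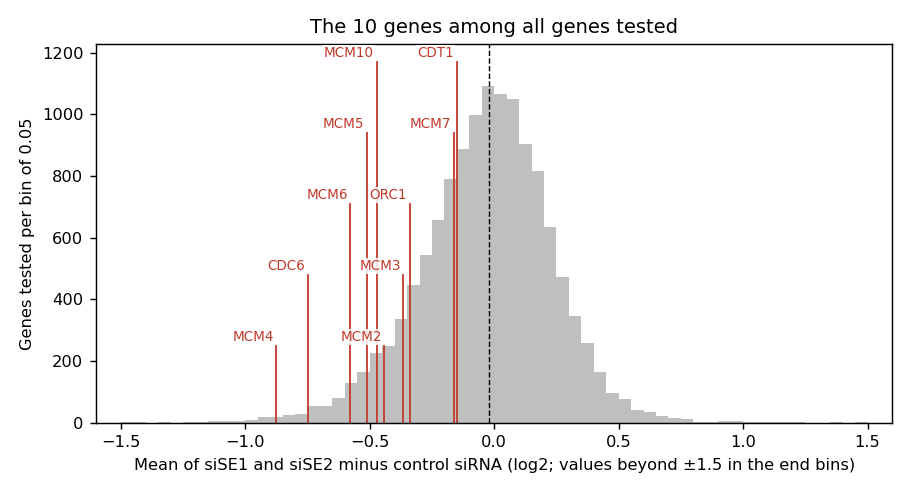
Histogram of the difference (mean of siSE1 and siSE2 minus control siRNA, log2) over the 12892 genes tested, with the 10 genes as labelled red lines of arbitrary height and the median of all genes as a dashed line. The red lines all lie left of the dashed line, from -0.88 for MCM4 to -0.15 for CDT1.

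The siRNAs were then set against each other, which has no test with 1 array each. MCM10 had the widest gap, 0.27 lower with siSE1 than with siSE2 on the log2 scale, and 84.2% of the genes tested had a smaller gap. CDC6 was 0.22 lower with siSE1 and MCM4 0.18 lower, while MCM2 was 0.20 higher with siSE1. In all, 6 of the 10 genes were lower with siSE1 than with siSE2, against 51% of all genes tested, a share near that of genes in general. The standard deviation of this gap over all genes tested was 0.20.

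The steps around licensing were followed in lists of other genes. The helicase activation and firing factors, which turn the loaded ring into a working helicase, had a lower median than the licensing genes. Of 13 tested, 4 fell, 0 rose and 9 did not pass, while 0.714% of all genes tested fell and 0.248% rose. All 13 were lower with both siRNAs, against 41.7% of all genes tested, and their median difference was -0.68. GINS1, chosen after its values were seen, had the lowest difference, -1.30 ± 0.44 (SE), without passing (limma, adjusted p = 0.173). Its siRNA arrays disagreed in size, at -2.05 with siSE1 and -0.56 with siSE2. GINS4, CDC45, GINS3 and WDHD1, a replisome scaffold, fell, with log2 differences of -1.15, -0.92, -0.85 and -0.75 (limma, adjusted p from 0.0207 to 0.0471). With no filter on dim genes none of the 4 passed (limma, adjusted p from 0.0927 to 0.136), and with the filter at the median gene GINS4 alone did (adjusted p = 0.0287), the others reading 0.0503 to 0.0559. With equal array medians the WDHD1 call was lost too (limma, adjusted p = 0.0519). GINS4 read 6.38 with siSE1 and 6.24 with siSE2, against 7.46 with the control siRNA, the lower array here being siSE2. CDC7, the kinase that phosphorylates the ring at the onset of firing, differed by -0.68 ± 0.14 (SE) without passing (limma, adjusted p = 0.0595); it was chosen after its values were seen.

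Among 11 other origin recognition and licensing genes, 0 fell and 0 rose by limma, and the list was mixed in direction. At an unadjusted p under 0.05 (limma) GMNN and MCM8 were lower, as were 11.3% of all genes tested. With both siRNAs 6 of the 11 read lower, against 41.7% of all genes tested, and 5 read higher. Their median was -0.09, and it differed between siSE1 (-0.02) and siSE2 (-0.17). GMNN, which encodes the CDT1 inhibitor geminin, read 6.82 with siSE1 and 6.71 with siSE2, against 7.34 with the control siRNA, and MCM8, a helicase of recombination, read 9.21 and 9.38, against 9.74. Their differences were -0.57 ± 0.14 and -0.44 ± 0.15 (SE; limma, adjusted p = 0.0914 and 0.172). KAT7, the acetyltransferase also called HBO1, differed by 0.28 ± 0.14 and MCM9, the partner of MCM8, by -0.26 ± 0.14. The other ORC subunits, given here as the counterparts of ORC1 and chosen after their values were seen, did not share its direction throughout: ORC2, ORC4 and ORC5 differed by 0.30, 0.12 and 0.32, and ORC3 and ORC6 by -0.15 and -0.09, none passing.

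Genes for the turnover of licensing factors had a median of -0.12 over 10 genes, and none passed (limma). At an unadjusted p under 0.05 (limma) CCNF and DTL were lower, as were 11.3% of all genes tested. CCNF, the cyclin F subunit of a ligase that degrades CDC6, differed by -0.59 ± 0.14, and DTL, the adaptor that directs CDT1 to degradation, by -0.58 ± 0.15 (SE; limma, adjusted p = 0.0877 and 0.0929). SKP1 and CUL4B, ligase core genes, differed by -0.17 ± 0.14 and 0.18 ± 0.16. The 13 tested E2F and RB family genes had a median of -0.21, with -0.24 for siSE1 and -0.05 for siSE2, and none passed (limma). At an unadjusted p under 0.05 (limma) E2F8 and RBL1 were lower, as were 11.3% of all genes tested. E2F5 was higher, for which the share over all genes was not counted. E2F8, a repressor of the family, differed by -0.54 ± 0.14, E2F5 by 0.76 ± 0.15, RBL1, which encodes p107, by -0.38 ± 0.14 and E2F3 by 0.30 ± 0.14 (SE). E2F1, an activator often studied with the MCM genes and chosen after its values were seen, read 7.94 with siSE1 and 7.81 with siSE2, against 8.10 with the control siRNA.

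In the list of general proliferation genes, which includes the CDK inhibitor gene CDKN1A, 1 of 10 tested genes rose and 0 fell (limma). Over all genes tested 0.248% rose and 0.714% fell. Without regard to size 7 of the 10 were lower with both siRNAs, against 41.7% of all genes tested, and the median was -0.39. With no adjustment (limma, p under 0.05) 6 were lower, CCNA2, CCNE2, CDK2, MKI67, PCNA and TOP2A, against 11.3% of all genes tested. CCNE1 and CDKN1A were higher, for which the share over all genes was not counted. CDKN1A, which encodes p21, rose by 1.37 on the log2 scale (limma, adjusted p = 0.0147, and 0.0927 with no filter on dim genes). MKI67, which encodes the Ki-67 antigen, read 8.62 with siSE1 and 8.47 with siSE2, against 9.22 with the control siRNA. Its difference of -0.68 ± 0.15 did not pass (SE; limma, adjusted p = 0.0654), nor did that of CDK2 (-0.56 ± 0.14; adjusted p = 0.0929). CCNE1, the cyclin E1 gene, went the other way, by 0.64 ± 0.15 (SE; limma, adjusted p = 0.0731). The part of a change in proliferation in the values of the 10 licensing genes was not tested.

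**Figure D5:**
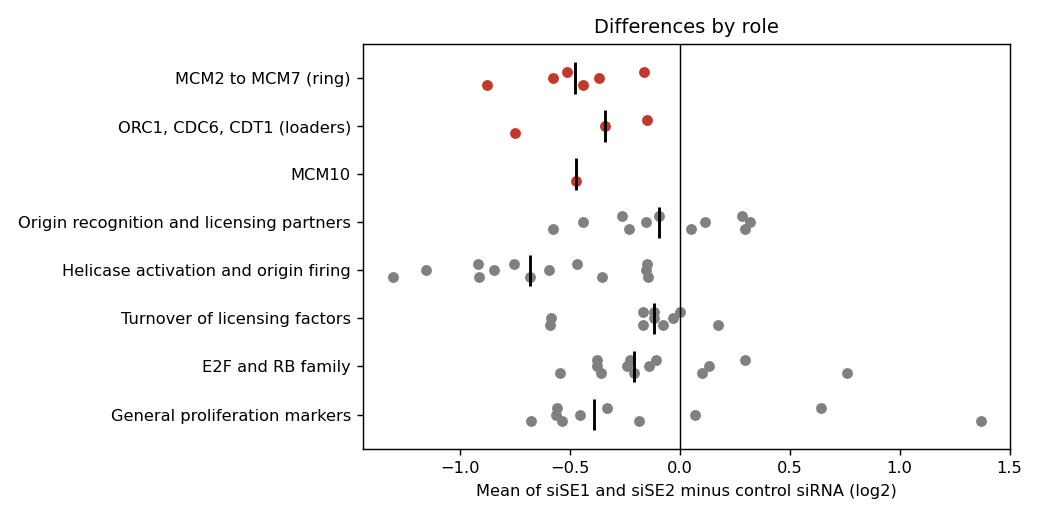
Difference (mean of siSE1 and siSE2 minus control siRNA, log2) of each tested gene, 1 point per gene, for the licensing genes by role (red) and for the lists of related genes (grey), with black bars at the medians. The firing factors have the lowest median of the rows shown (-0.68), and the other origin recognition and licensing genes lie on both sides of 0.

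By the distance between pairs of changes (siSE1 minus control and siSE2 minus control, over the 3 arrays), the genes nearest to the medians of the licensing genes were SPRED2, NLGN1, ATP5F1A, TRIP13 and ZNF823. Within a distance of 0.1 on the log2 scale lay 276 other genes, so these 5 do not stand apart. Luminal prostate markers were high on all arrays, from 8.75 to 10.73 for the 6 of 10 markers named alone (KLK2, KLK3, KRT8, KRT18, HOXB13 and EPCAM). Markers of blood cells, stroma and basal epithelium gave 0 calls among the 12 that passed the filter on dim genes (limma). The summed log2 signal of the 7 blood cell markers was 35.2 with siSE1 and 34.6 with siSE2, against 32.9 with the control siRNA, with LYZ at 6.09 and 5.11, against 4.41. PTPRC, the defining marker of blood cells, read 3.22 and 3.18, against 3.17, and the stromal marker LUM read 2.45 and 2.47, against 2.41, both below the filter level. Other members of these lists read higher. The filter was passed by 7 of 10 stromal, 3 of 7 blood cell and 2 of 5 basal markers. The stromal marker FN1 read 10.72 and 10.63, against 10.75, and the blood cell marker CD68 read 7.53 and 7.67, against 7.30. The sums were 59.3 and 59.0, against 59.1, for 10 stromal markers and 28.0 and 28.5, against 27.4, for 5 basal markers.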

How the data were processed

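Expression was measured on whole-transcript Affymetrix arrays, 1 per siRNA. The authors deposited log2 values per probe set, and the submitters' processing notes name Affymetrix Expression Console; for its version, the background correction and the genome build, nothing is stated (not given in the sources used here). The log2 scale was inferred from the range of the values, 1.43 to 13.87. Probe sets naming 1 gene (19460) were kept, symbols were updated by gene identifier where RefSeq matched (19429), and probe sets of a gene were averaged. A filter at the 30th percentile of the gene means removed 5525 of 18417 genes. The mean of siSE1 and siSE2 was set against the control value with limma 3.58.1 in R 4.3.3 (lmFit and eBayes, 1 residual and 8.46 prior degrees of freedom), with Benjamini-Hochberg adjustment over 12892 genes and a threshold of 0.05; SE and intervals are moderated. On simulated data of this design, 452 of 500 genes lowered by 1 and 500 of 500 lowered by 2 on the log2 scale were recovered. Of the calls 10.8% were false, above the rate of 0.05 that the threshold aims at. Smaller changes were not simulated, and the licensing genes differed by -0.88 to -0.15, so recovery at their sizes is not known. The simulated control array was given the same spread as the siRNA arrays. The number of arrays limits the precision. At most 131 of 33297 values were identical between arrays. Alternatives covered normalization, the filter, probe set choice, the variance prior, thresholds and leaving out either siRNA array. Genes named are the 10 licensing genes; from each list up to 4 tested genes ranked by the smaller of the siSE1 and siSE2 changes, where both have the same direction; and the 5 nearest in pattern. The licensing genes and lists were chosen with earlier results of these data known. Protein comparison of the licensing genes was planned and not done here.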

Additional observations from a re-analysis of the deposited data

How the results depend on the processing

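All 10 licensing genes kept their negative difference, and were lower with both siRNAs, under quantile normalization, equal array medians and cyclic loess. The other alternatives run for single genes could not change the sign. The filter and the prior do not enter the difference of a gene. The probe set choice left the values of the 10 genes as they were, because all 10 have 1 probe set. Leaving out an siRNA array gives back the difference of the other array. MCM4 alone passed with quantile normalization, equal array medians, cyclic loess, the highest probe set per gene, a trended prior and a robust prior (limma, adjusted p as low as 0.0294); 0 of the 10 passed with no filter (adjusted p = 0.124, difference of -0.88) or a filter at the 50th percentile (adjusted p = 0.0503, difference of -0.88), where the number of genes tested and the prior both changed. At an adjusted p under 0.1, 3 passed (MCM4, CDC6 and MCM6). Over all genes 124 passed, against 189 with quantile normalization, 1 with no filter, 35 with the stricter filter and 507 at an adjusted p under 0.1; the cause was not tested. The median difference of the 10 genes was -0.46, and -0.40 with quantile normalization; leaving out either siRNA array gave -0.47 to -0.41. The count at least 1.5-fold lower was 2, ran from 2 to 5 without either siRNA array, and was 7 at the smaller size (0.32 on the log2 scale) and 0 at 2-fold. Adding probe sets that name a licensing gene together with others was not run, because 0 such probe sets exist. No paired analysis was possible because the control array is the only array of its group. With either siRNA array left out no residual degree of freedom remains, so those values have no test.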
